A study of Mus musculus with 40 samples.

Results

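The change in mRNA levels between 6 and 9 hr of lipopolysaccharide (LPS) in macrophages that lack Cpeb4 is described here, beside the same change in wildtype (WT) macrophages. The members are the 8 Cpeb4-/- libraries at these times, 4 at 6 hr and 4 at 9 hr, and they were set against the 8 WT libraries at the same times, so 16 of the 40 libraries of the series were compared. Each mouse gave both libraries, and the change was taken within the mouse. Of 27179 genes listed, 13021 had a mean level of at least log2 of 5 over the 16 libraries and were tested.

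The cells were bone marrow-derived macrophages (BMDMs), grown from the marrow of male mice with L-cell conditioned medium as the source of the macrophage growth factor M-CSF, and kept in LPS at 10 ng/ml, a bacterial cell wall component that activates Toll-like receptor 4. The knockout group (labelled CPEB4-KO; here Cpeb4-/-, a whole-body knockout) held mice 2, 3, 55 and 62, and the WT group held mice 25, 69, 87 and 88. Both genotypes were of a mixed C57BL/6J and 129 strain background, and the share of each strain in a mouse is not given. Each of the 2 batches in the labels held 2 mice of each genotype (Cpeb4-/- 3 and 62 with WT 25 and 88 in batch 1, the others in batch 2), and no cage held both genotypes, so genotype and cage cannot be told apart. The series asked how macrophages shut down the inflammatory programme when this RNA-binding protein is absent, and the interval from 6 to 9 hr falls in the declining phase of that programme.

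CPEB4 binds cytoplasmic polyadenylation elements in the 3′ untranslated regions of mRNAs and can lengthen their poly(A) tails, which affects both stability and translation. LPS first induces cytokines, chemokines and immediate early transcription factors through NF-kB and MAP kinases, then a wave of interferon-stimulated genes through secreted type I interferon. The response is later restrained by feedback inhibitors such as phosphatases, SOCS proteins, the mRNA-decay factor TTP (encoded by Zfp36) and the cytokine IL-10, while glycolysis and the targets of the hypoxia-inducible factor HIF-1 remain active.

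All values are rlog values, a log2 scale on which the authors corrected for library size and pulled low counts toward the mean of the gene. A change of 1 is a doubling on that scale, folds of low genes are understated, and the values do not carry the depth of a library. Macrophage markers averaged between 14.5 and 14.8 in each of the 16 libraries, and all 11 of them passed the filter. Of the markers of other cell types, none of the 9 lymphocyte genes and none of the 6 erythroid genes passed it, and 4 of 10 neutrophil, 4 of 7 dendritic cell, 2 of 6 mast cell and 1 of 7 fibroblast genes did. The mean of the fibroblast list ranged from 1.51 to 2.86 in Cpeb4-/- cells at 9 hr and from 1.32 to 1.65 in WT cells, and its part in the results was not tested. In such bulk samples a smaller share of cells that express a gene and less of its RNA per cell cannot be told apart.

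The targeted gene was examined first. Cpeb4 itself (chr11:31870104-31935635, mm10) was at 8.87, 9.45, 9.66 and 8.74 in Cpeb4-/- mice 2, 3, 55 and 62 at 6 hr and at 7.87, 9.27, 8.83 and 9.02 at 9 hr. The WT values, for mice 25, 69, 87 and 88, were 10.42, 10.67, 10.09 and 10.62 at 6 hr and 8.97, 8.94, 8.89 and 9.41 at 9 hr. The 2 genotypes did not overlap at 6 hr, when WT cells had more, and they overlapped at 9 hr. Reads were thus counted to the gene in Cpeb4-/- cells, and a count over the whole gene does not show which exons they came from. Cpeb4 fell by 1.40 in WT cells and by 0.43 ± 0.16 (SE, n = 4 mice) in Cpeb4-/- cells (limma adjusted p = 0.0384), where the changes of the 4 mice were -1.003, -0.18, -0.83 and 0.28, so mouse 62 moved against the others. This fall had an adjusted p of up to 0.192 with 1 mouse left out and of 0.16 without the mouse block, and it was not called without Cpeb4-/- mouse 2 or 55 or WT mouse 25 or 88. The difference between genotypes was 0.97 ± 0.23 (adjusted p = 0.0372, and up to 0.13 with 1 mouse left out). Its relative Cpeb3 fell in every mouse, with changes of -1.25 to -0.81 in Cpeb4-/- and -1.63 to -1.41 in WT cells (difference 0.50 ± 0.10, limma adjusted p = 0.019, up to 0.0703 with 1 mouse left out). The other family members, Cpeb1 and Cpeb2, had no called change in either genotype.

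**Figure D1:**
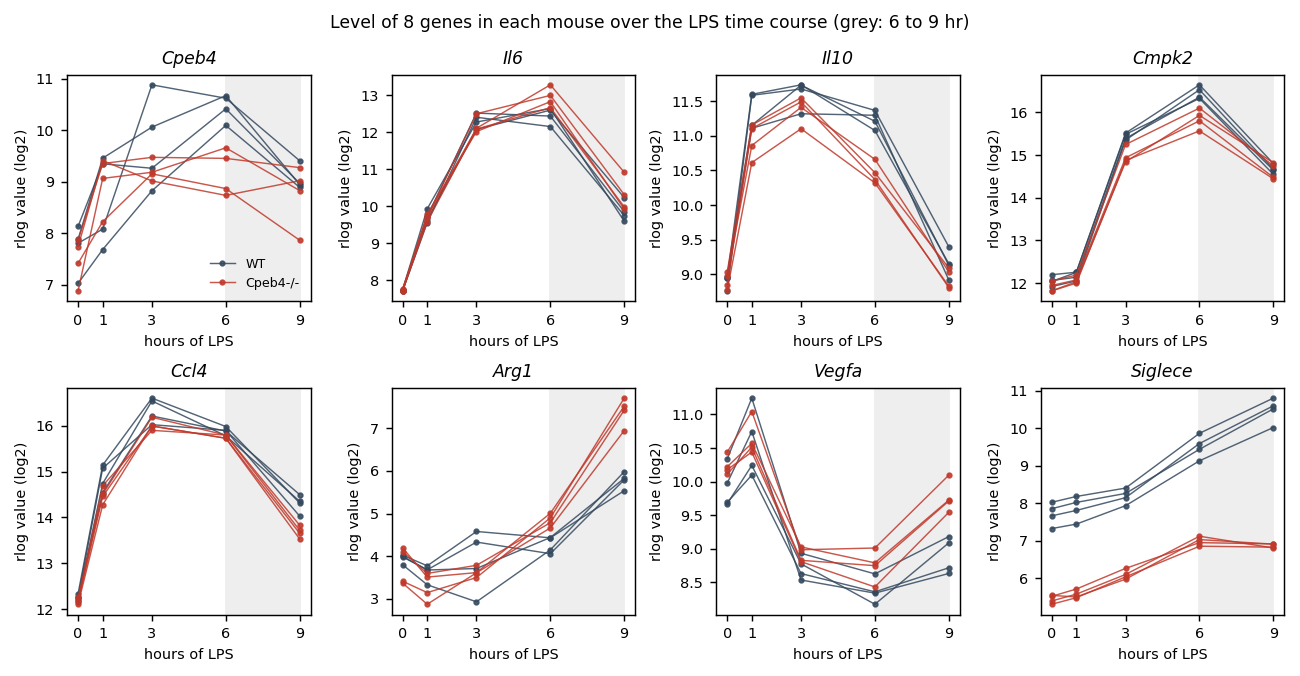
Level (rlog value, log2) of 8 genes against hours of LPS, 1 line per mouse, with Cpeb4-/- in red, WT in dark blue and the interval from 6 to 9 hr in grey. Il10 and Cmpk2 started the interval lower in Cpeb4-/- cells and ended it close to WT, Arg1 climbed further above WT, and Siglece had a called rise over the interval only in WT cells.

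Promoter sequence of 2 of the gene lists described below is shown before the values. The HIF-1 complex binds DNA at a core of letters ACGTG, and interferon-activated factors bind elements with 2 copies of GAAA set 2 bases apart. RefSeq promoters (250 bases before to 50 after the start, build GRCm38.p6, both strands searched) were found for 25 of 29 tested HIF targets outside glycolysis, and 18 of these 25 genes, or 72%, held ACGTG in at least 1 promoter, against 29.3% of the tested genes with a promoter in the table and 21.8% of all genes there. The share was 75% for the 4 of them whose change differed between genotypes by the test and 71.4% for the other 21. For the interferon-stimulated genes a promoter was found for 35 of 45, a smaller part of the list than for the HIF targets, and no share is given for them. Of all 32851 promoters 19.6% held ACGTG and 3.44% held the GAAA pair. Windows from 4 HIF targets and 4 interferon-stimulated genes are printed so that the letters can be seen in genes described below; capitals mark the motif as it lies on the strand of the gene (CACGT and copies of TTTC when it lies on the opposite strand).
Egln3 (chr12:54204088-54204114, minus strand): gtgcatctcagACGTGagatccaggtt
Vegfa (chr17:46025359-46025385, minus strand): gagtgcgtgccCACGTcagagagcaac
P4ha2 (chr11:54100835-54100861, plus strand): gtgcatcgcatACGTGcagcgcgtggc
Mxi1 (chr19:53329336-53329362, plus strand): ctcggcacccgACGTGcactggcgggg
Cxcl10 (chr5:92349084-92349111, minus strand): cacgctttgGAAAGTGAAActtacctca
Rsad2 (chr12:26456554-26456581, minus strand): tggtccaacTTTCATTTTCagaaaacag
Ifit3 (chr19:34583364-34583391, plus strand): agtggtaagTTTCACTTTCctcttctgg
Stat2 (chr10:128270267-128270294, plus strand): gcaccctggTTTCAGTTTCctttcccta
The Vegfa and Mxi1 windows belong to starts that lie inside the RefSeq spans of these genes (chr17:46016993-46032377 and chr19:53310128-53373293). A match of letters is a description of the window only.

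From 6 to 9 hr, 3526 genes rose and 3945 fell in Cpeb4-/- cells at an adjusted p under 0.05 (limma with mouse as a block), which is 27.1% and 30.3% of the genes tested and 57.4% together. In WT cells 3551 rose and 4271 fell (27.3% and 32.8%, together 60.1%). The counts of rising and falling members of the lists below are to be read against these shares. In both genotypes 2795 genes rose and 3269 fell. Only 40 genes rose in Cpeb4-/- cells and fell in WT cells, and 7 did the opposite. Changes of at least 1 were found for 222 rising and 205 falling genes in Cpeb4-/- cells and for 171 and 376 in WT cells. The sign was shared by all 4 Cpeb4-/- mice for 59% of genes and by all 4 WT mice for 70.5%.

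The change itself differed between genotypes for 580 genes, 4.45% of those tested: it was higher in Cpeb4-/- cells for 478 (3.67%) and lower for 102 (0.783%). Of the 478, 234 fell in both genotypes, and less in Cpeb4-/- cells. A further 92 fell in WT cells and had no called change in Cpeb4-/- cells, 38 fell in WT and rose in Cpeb4-/- cells, 59 rose in Cpeb4-/- cells with no called change in WT, and 55 rose in both. Of the 102, 33 rose in WT with no called change in Cpeb4-/- cells, 26 fell in both, 21 rose in both, 15 fell in Cpeb4-/- cells with no called change in WT, and 7 moved in opposite directions. Fitted in each batch alone, the 478 had a median difference of 0.48 in batch 1 and 0.34 in batch 2 and the 102 of -0.34 and -0.30, a description only, since both batches had entered the calls. The number depended on the model and the mice: without the mouse block 64 higher and 9 lower differences were called, and leaving out 1 mouse gave 108 to 1350 higher and 9 to 513 lower. The highest numbers came without Cpeb4-/- mouse 2 and the lowest without WT mouse 69.

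**Figure D2:**
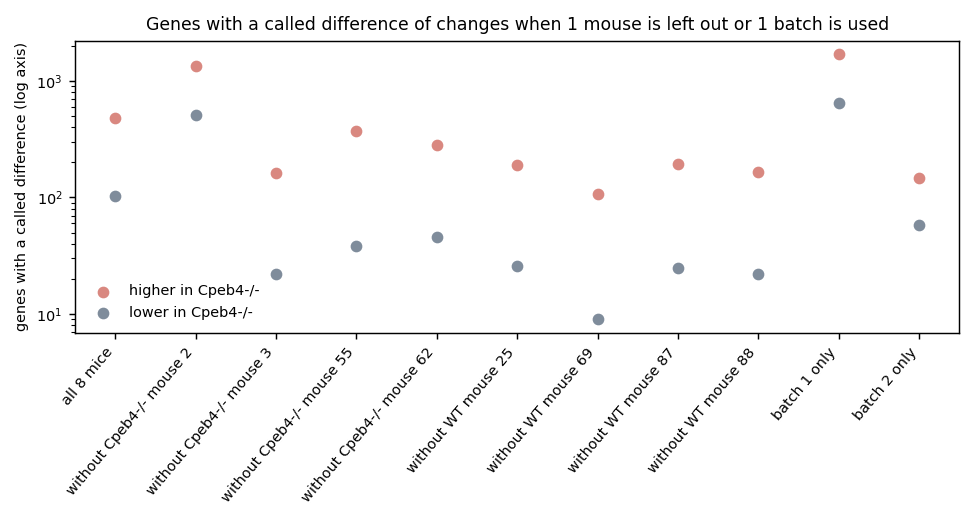
Number of genes with a called difference of changes (log axis) with all 8 mice, with each mouse left out, and within each batch; points give higher (red) and lower (grey) differences in Cpeb4-/- cells. The number was 1350 and 513 without Cpeb4-/- mouse 2 and 108 and 9 without WT mouse 69.

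**Figure D3:**
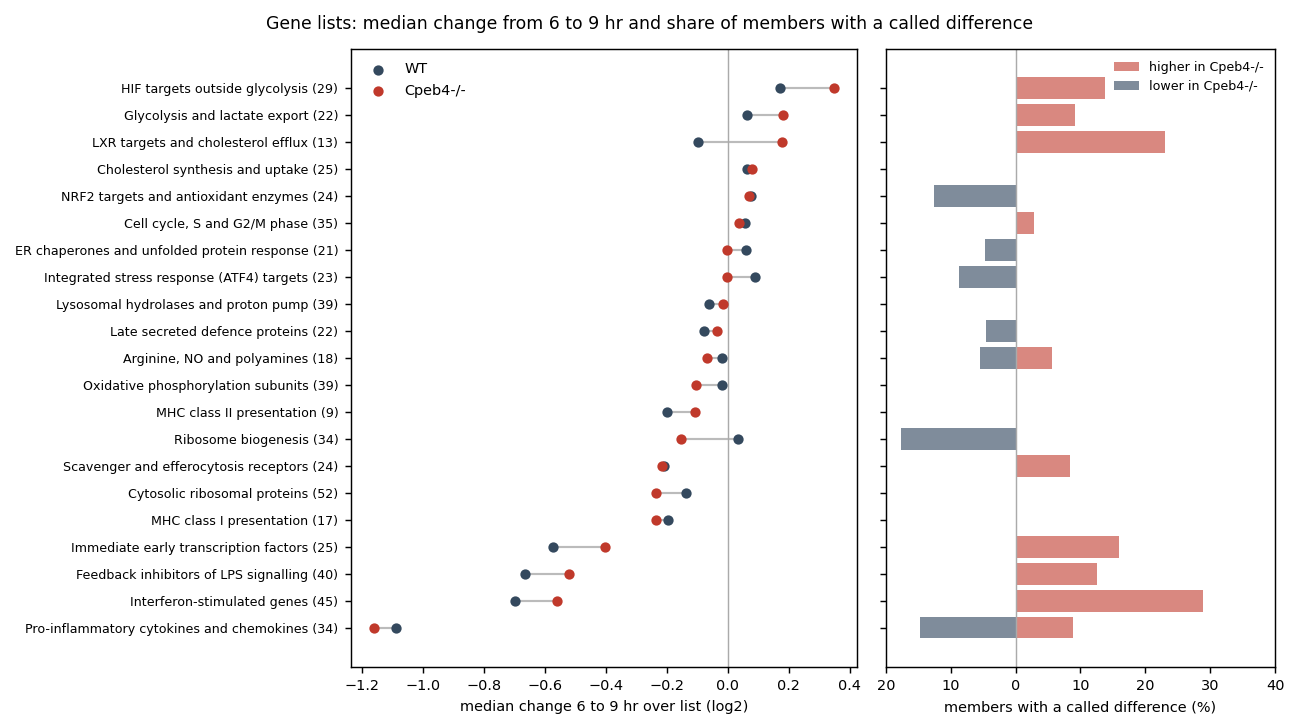
Left, median change from 6 to 9 hr (log2) of the genes of each list in WT (dark blue) and Cpeb4-/- (red) cells, with the number of genes tested in brackets. Right, percent of each list with a called difference, higher in Cpeb4-/- cells to the right and lower to the left; interferon-stimulated genes reached 13 of 45 on the right and ribosome biogenesis 6 of 34 on the left.

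The cytokine programme was being shut down in both genotypes. Of 34 pro-inflammatory cytokines and chemokines, 32 fell in Cpeb4-/- cells and none rose (WT, 31 and 0), with a median change of -1.16 (WT, -1.09). The change over all genes tested had a median of -0.016 in Cpeb4-/- and -0.026 in WT cells. Il6, the cytokine that drives the acute phase response, was at 12.83, 13.29, 13.00 and 12.67 in the 4 Cpeb4-/- mice at 6 hr and at 9.93, 10.92, 10.32 and 9.99 at 9 hr, with no overlap between the times. The WT values were 12.16, 12.60, 12.44 and 12.65 at 6 hr and 9.75, 10.24, 9.86 and 9.60 at 9 hr. Il6 thus fell by 2.66 ± 0.10 (SE, n = 4) in Cpeb4-/- cells (limma adjusted p = 1.54e-09) and by 2.60 in WT cells, and no difference of the changes was called (adjusted p = 0.848). Tnf, the first-wave cytokine, fell by 1.27 ± 0.059 in Cpeb4-/- cells and by 1.16 in WT cells. For Il1a, Cxcl1, Cxcl2 and Ccl2, the last 3 being chemokines for neutrophils and monocytes, the Cpeb4-/- changes were -1.30, -1.16, -1.39 and -0.69, and none differed between genotypes by the test (adjusted p from 0.264 to 0.47).

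Within this list the called differences went in both directions: 3 of 34 higher and 5 of 34 lower in Cpeb4-/- cells, against 3.67% and 0.783% of all genes. The 3 were Csf1, Il15 and Cxcl10. Csf1, which encodes the macrophage growth factor M-CSF, was at 10.34, 10.67, 10.60 and 10.22 in Cpeb4-/- and 10.54, 11.01, 10.76 and 10.92 in WT mice at 6 hr, and at 9.38, 9.61, 9.47 and 9.29 and 9.17, 9.54, 9.30 and 9.35 at 9 hr. Its fall was smaller in every Cpeb4-/- mouse (-1.12 to -0.93) than in any WT mouse (-1.57 to -1.37), a difference of 0.45 ± 0.066 (limma adjusted p = 0.00699, and 0.197 without the mouse block). Il15, a cytokine for natural killer and memory T cells, fell by 1.26 in Cpeb4-/- and 1.70 in WT cells (difference 0.45 ± 0.079, limma adjusted p = 0.0122).

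The 5 that fell further in Cpeb4-/- cells were the chemokines Ccl3, Ccl4, Ccl17 and Ccl22 and the cytokine Il1b, of which Ccl22 and Il1b were named after their values were seen; the 5 differences ran from -0.61 to -0.32. Ccl4, a chemokine for monocytes and T cells, was at 15.80, 15.73, 15.80 and 15.73 in Cpeb4-/- mice at 6 hr and at 13.72, 13.65, 13.83 and 13.53 at 9 hr, and at 15.78, 15.88, 15.98 and 15.90 and 14.35, 14.50, 14.31 and 14.03 in WT mice. The genotypes overlapped at 6 hr and were separate at 9 hr, where all Cpeb4-/- libraries were lower. The difference of its changes was -0.49 ± 0.10 (limma adjusted p = 0.0183, up to 0.066 with 1 mouse left out) and was -0.49 in batch 1 and -0.49 in batch 2. Its neighbour Ccl3 fell by 2.29 in Cpeb4-/- and 1.85 in WT cells (difference -0.44 ± 0.10, limma adjusted p = 0.0272, up to 0.1 with 1 mouse left out). The RefSeq models of the pair overlap (Ccl3 at chr11:83647843-83649378, Ccl4 at chr11:83648624-83664683), so reads of one may have been withheld from or given to the other. Ccl17, a ligand of CCR4, fell by 1.38 against 0.77 (difference -0.61 ± 0.13, limma adjusted p = 0.0235, up to 0.0903 with 1 mouse left out).

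The 10 largest falls in Cpeb4-/- cells, which all exceeded 2, were Il6, Il19, Ptgs2, Fst, Edn1, Ccl3, Il12b, Tnfsf15, Ccl4 and Steap4. Ptgs2, the inducible cyclooxygenase of prostaglandin synthesis, went from 15.46, 15.69, 15.59 and 15.25 to 12.63, 13.44, 13.09 and 12.94 in the 4 Cpeb4-/- mice, a change of -2.47 ± 0.094 (limma adjusted p = 1.72e-09). Il19 of the IL-10 family fell by 2.64, Il12b, the shared p40 subunit of IL-12 and IL-23, by 2.26, and the TNF family ligand Tnfsf15 by 2.20. The activin antagonist Fst fell by 2.37, the peptide hormone precursor Edn1 by 2.34 and the metalloreductase Steap4 by 2.08. Only Ccl3 and Ccl4 among these 10 had a called difference from WT. The 10 were chosen by size and adjusted p of this change.

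Feedback inhibitors were also falling. Of 40 tested, 33 fell and 5 rose in Cpeb4-/- cells (WT, 33 and 3), with a median of -0.52 (WT, -0.66). The decay factor gene Zfp36 was at 15.03, 15.07, 15.12 and 15.04 in Cpeb4-/- mice at 6 hr and at 14.14, 13.97, 14.08 and 14.08 at 9 hr; in WT mice it was at 15.26, 15.38, 15.29 and 15.27 and 14.22, 14.46, 14.10 and 14.09. The lower 6 hr values of Cpeb4-/- cells did not overlap with WT, those at 9 hr did, and the fall of 0.999 did not differ by the test from the WT fall of 1.08 (difference 0.085 ± 0.072, limma adjusted p = 0.538). Dusp1, a phosphatase of p38 and JNK, fell by 0.96 against 1.18 in WT (difference 0.22 ± 0.068, limma adjusted p = 0.0848). For the cytokine signalling suppressors Socs1 and Socs3 and the ubiquitin editor Tnfaip3 the Cpeb4-/- changes were -0.81, -0.65 and -1.25, and their differences from WT of 0.23, 0.10 and 0.069 were not called. The IL-1 receptor antagonist Il1rn changed by -0.34 to -0.12 in single Cpeb4-/- mice and by -0.31 to -0.085 in WT mice.

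The 5 called differences in this list were all higher in Cpeb4-/- cells (5 of 40, against 3.67% of all genes): Il10, Etv3, Nfil3, Bcl6 and Sbno2, the last 3 named after their values were seen, with differences from 0.22 to 0.57. Il10, the main anti-inflammatory cytokine of macrophages, was at 10.47, 10.32, 10.66 and 10.37 in Cpeb4-/- and at 11.08, 11.37, 11.21 and 11.30 in WT mice at 6 hr, so the groups did not overlap and Cpeb4-/- cells were lower. At 9 hr the values were 9.09, 8.83, 9.03 and 8.81 and 9.15, 9.40, 9.13 and 8.92, and the groups overlapped. Il10 fell by 1.51 ± 0.068 in Cpeb4-/- cells and by 2.09 in WT cells, a difference of 0.57 ± 0.10 (limma adjusted p = 0.011; 0.63 in batch 1, 0.52 in batch 2). Etv3, a transcriptional repressor induced by IL-10, followed the same course, at 12.75 to 13.03 in Cpeb4-/- and 13.37 to 13.65 in WT mice at 6 hr and at 12.28 to 12.44 and 12.43 to 12.66 at 9 hr (difference 0.45 ± 0.07, limma adjusted p = 0.0092). The rises in this list were led by the glucocorticoid-induced repressor Tsc22d3 (1.27) and the TTP relative Zfp36l2 (1.12), and the deepest fall was that of the phosphatase Dusp2 (-1.58).

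Among 25 immediate early transcription factors, 17 fell and 3 rose in Cpeb4-/- cells (WT, 19 and 2), with a median of -0.40 (WT, -0.57). The 3 that rose were Jun, Fos and Klf2. Jun, a subunit of AP-1, was at 11.02, 10.85, 11.09 and 10.88 in Cpeb4-/- mice at 6 hr and then, at 9 hr, 11.43, 11.36, 11.42 and 11.34, so that the rise was 0.43 ± 0.04. In WT mice it was at 11.15, 11.21, 11.29 and 11.28 and then at 11.29, 11.22, 11.42 and 11.31 (change 0.08, limma adjusted p = 0.105), and the difference was 0.35 ± 0.057 (limma adjusted p = 0.011). Fos, its partner, rose by 0.29 in Cpeb4-/- cells and changed by -0.086 in WT cells (difference 0.38 ± 0.069, limma adjusted p = 0.0141). Both pairs of changes were separate, each Cpeb4-/- mouse lying above each WT mouse, as for 8.85% of all genes (4.5% had each Cpeb4-/- mouse below each WT mouse). The other called differences were those of Mafk and Csrnp1, named after their values were seen, and all 4 were higher in Cpeb4-/- cells (4 of 25, against 3.67% of all genes). All 5 NF-kB subunit genes fell in both genotypes; Rel fell by 0.95 in Cpeb4-/- and 1.41 in WT cells, and this difference was not called (adjusted p = 0.0609).

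Nearly all interferon-stimulated genes fell, and 13 of them fell less in Cpeb4-/- cells. Of 45 tested, 44 fell in Cpeb4-/- and 43 in WT cells, and none rose, with medians of -0.56 and -0.70. The difference was called for 13 of 45 genes and all 13 were higher in Cpeb4-/- cells, against 3.67% of all genes; they ranged from 0.23 to 0.57. For 42 of 45 the difference was positive, with a median of 0.17 (0.016 over all genes tested). The mean change over the list was between -0.65 and -0.57 in the 4 Cpeb4-/- mice and between -0.88 and -0.73 in the 4 WT mice, so the mice of the genotypes did not overlap. The median difference was 0.23 within batch 1 and 0.082 within batch 2. The number called depended on the fit: it was 0 without the mouse block, 21 without Cpeb4-/- mouse 2 and 4 without WT mouse 69. It was also 0 with no filter on low values, 2 without the trend in the variance and 4 with the block as a random effect. The difference was positive for 37 to 42 genes with 1 mouse left out. Under quantile normalization it was positive for 35 of 45, with a median of 0.10 and 8 called.

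Cmpk2, a mitochondrial nucleotide kinase next to Rsad2 in the genome, was at 15.80, 15.93, 16.10 and 15.56 in Cpeb4-/- mice at 6 hr and at 16.32, 16.53, 16.36 and 16.64 in WT mice. At 9 hr it was at 14.48, 14.82, 14.75 and 14.44 and 14.55, 14.67, 14.65 and 14.80. The genotypes were separate at 6 hr, with Cpeb4-/- lower, and overlapped at 9 hr. It fell by 1.23 ± 0.048 in Cpeb4-/- and by 1.80 in WT cells, a difference of 0.57 ± 0.068 (limma adjusted p = 0.0033), which was 0.70 in batch 1 and 0.44 in batch 2. Rsad2, which encodes the antiviral enzyme viperin, changed by -1.22 to -1.08 in single Cpeb4-/- mice and by -1.60 to -1.48 in WT mice (difference 0.39 ± 0.058, limma adjusted p = 0.00699, and 0.238 without the mouse block). Cxcl10, the interferon-induced T cell chemokine, started at 16.71 to 17.00 in Cpeb4-/- and 16.78 to 17.19 in WT mice, where the groups overlapped, and ended at 15.14 to 15.60 and 15.01 to 15.21 (difference 0.45 ± 0.084, limma adjusted p = 0.0156, up to 0.0547 with 1 mouse left out). Among the other 10 called members, chosen after their values were seen, were Iigp1, Ifit1, Ifit2, Ifit3, Mx1, Slfn5, Irf8, Stat2 and Oasl1.

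MHC class I presentation genes, which overlap the interferon list, fell for 15 of 17 in Cpeb4-/- cells (WT, 12), and no difference was called. Their transactivator Nlrc5 fell by 0.84 in Cpeb4-/- and by 1.14 in WT cells (difference 0.30 ± 0.081, limma adjusted p = 0.0617). The peptide transporter Tap1 fell by 0.56 and 0.67. Of the 9 MHC class II genes, 4 fell in each genotype and 2 rose in Cpeb4-/- cells (H2-DMa and H2-Oa, named after their values were seen), with no called difference.

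**Figure D4:**
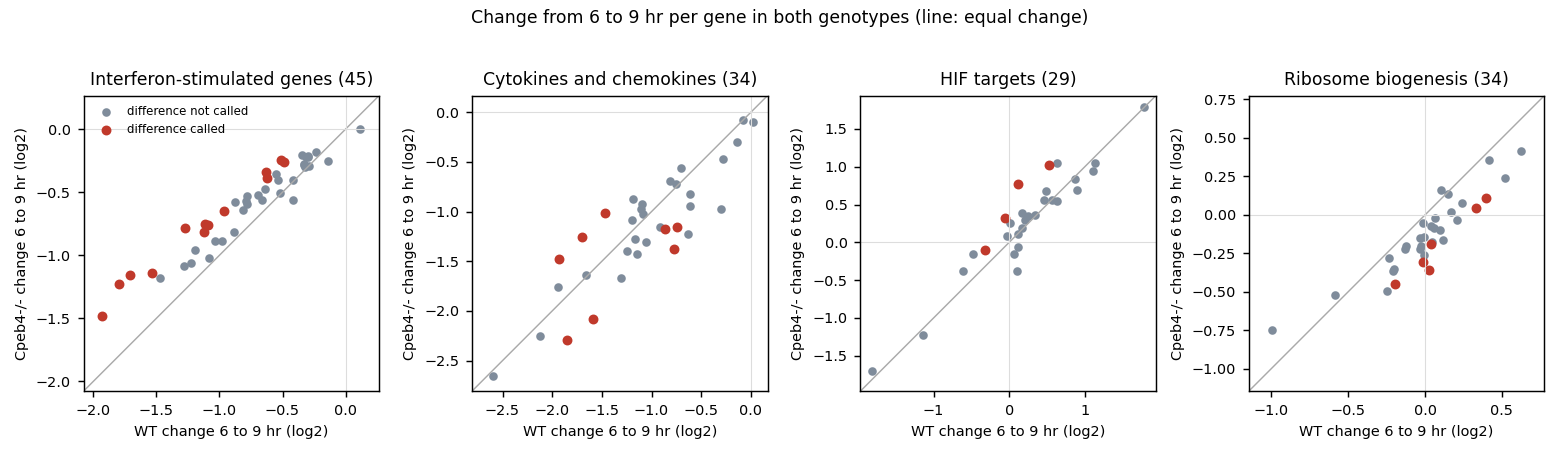
Change from 6 to 9 hr in Cpeb4-/- cells (vertical, log2) against the change in WT cells (horizontal, log2) for the genes of 4 lists, 1 point per gene, red where the difference was called; the line marks equal change. Of the interferon-stimulated genes 42 of 45 lay above the line, and of the ribosome biogenesis genes 31 of 34 lay below it.

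Most HIF targets rose. Outside glycolysis, 19 of 29 rose and 6 fell in Cpeb4-/- cells (WT, 15 and 5), with medians of 0.35 and 0.17. The mean over the list was between 0.23 and 0.35 in the Cpeb4-/- mice and between 0.059 and 0.40 in the WT mice, so the mice overlapped. Egln3, the prolyl hydroxylase that marks HIF for destruction and is itself induced by it, rose from 6.07, 5.55, 5.71 and 5.82 to 7.51, 7.34, 7.42 and 8.04 in Cpeb4-/- mice. In WT mice it rose from 5.12, 4.93, 4.84 and 4.74 to 6.31, 6.61, 6.61 and 7.22. Cpeb4-/- libraries were above WT at both times, and the rises of 1.79 ± 0.17 and 1.78 differed by 0.013 ± 0.24, which was not called. The collagen prolyl hydroxylase P4ha2 rose by 1.06 (WT, 0.63), and its difference was not called. The peptide hormone gene Adm fell by 1.22. Hif1a itself ranged from 13.43 to 13.63 at 6 hr to 13.11 to 13.80 at 9 hr in Cpeb4-/- mice, with changes of -0.32, 0.36, -0.016 and 0.34 in mice 2, 3, 55 and 62, and neither its change (0.091, adjusted p = 0.419) nor its difference from WT was called.

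The 4 called differences among HIF targets were Mxi1, Vegfa, Pdk1 and P4ha1 (the last named after its value was seen), all higher in Cpeb4-/- cells (4 of 29, against 3.67% of all genes). Vegfa, the main angiogenic growth factor, was at 8.79, 8.43, 8.74 and 9.01 in Cpeb4-/- mice at 6 hr and at 9.72, 9.54, 9.71 and 10.09 at 9 hr. In WT mice it was at 8.33, 8.62, 8.35 and 8.17 and 8.63, 9.18, 8.71 and 9.08. All 4 Cpeb4-/- libraries were above WT at 9 hr, and the rise was 1.02 ± 0.083 against 0.53 (difference 0.49 ± 0.12, limma adjusted p = 0.0372, up to 0.108 with 1 mouse left out; 0.50 and 0.49 within batches 1 and 2). Pdk1, a kinase that inhibits pyruvate dehydrogenase, rose in every Cpeb4-/- mouse (0.27, 0.41, 0.21 and 0.41) and changed by -0.14, -0.045, -0.091 and 0.063 in WT mice (difference 0.38 ± 0.066, limma adjusted p = 0.0117). Mxi1, an antagonist of MYC, rose by 0.58 to 1.01 in Cpeb4-/- and changed by -0.23 to 0.51 in WT mice (difference 0.65 ± 0.14, limma adjusted p = 0.025, up to 0.0791 with 1 mouse left out).

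Glycolysis and lactate export genes rose in 11 of 22 cases and fell in 4 in Cpeb4-/- cells (WT, 11 and 7). The rises were led by the isomerase Tpi1 (0.64; WT, 0.64) and the lactate exporter Slc16a3 (0.63; WT, 0.78). The difference was positive for 19 of 22 genes, with a median of 0.12, and called for 2 (2 of 22 higher, against 3.67% of all genes). Hk1, the hexokinase that starts glycolysis, had no called change in Cpeb4-/- cells (-0.079, 0.092, -0.047 and 0.15 in the 4 mice) and fell in WT cells (-0.31, -0.28, -0.34 and -0.21), a difference of 0.31 ± 0.061 (limma adjusted p = 0.0182, up to 0.065 with 1 mouse left out). The phosphofructokinase Pfkp fell by 0.85 and 1.06 (difference 0.21 ± 0.053, limma adjusted p = 0.0437, up to 0.133 with 1 mouse left out), and Pfkfb3, which makes the activator of that enzyme, fell by 0.84 and 1.11 with no called difference. Gapdh, often taken as a reference gene, rose by 0.32 in Cpeb4-/- cells, and the reference gene Tbp changed by -0.06, which was not called. Elavl1, which encodes the mRNA-stabilizing protein HuR, fell by 0.23. Gapdh has many processed pseudogenes, and its counts may have been split with them.

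The largest rise among called genes in Cpeb4-/- cells was that of Arg1, arginase 1, which draws arginine away from nitric oxide synthesis. It was at 4.79, 4.90, 4.66 and 5.01 in mice 2, 3, 55 and 62 at 6 hr and at 7.42, 7.70, 6.94 and 7.51 at 9 hr. In WT mice it was at 4.43, 4.44, 4.06 and 4.15 and 5.53, 5.82, 5.79 and 5.98. Every Cpeb4-/- library was above every WT library at both times. The rise was 2.56 ± 0.13 (limma adjusted p = 6.86e-09) against 1.51, a difference of 1.04 ± 0.18 (limma adjusted p = 0.0112), which was 1.19 in batch 1 and 0.90 in batch 2. Untreated cells had 3.37 to 4.20 in Cpeb4-/- and 3.80 to 4.02 in WT mice. Nos2, the inducible nitric oxide synthase that competes for arginine, fell by 1.27 in Cpeb4-/- and by 1.76 in WT cells, and the difference was not called (adjusted p = 0.0705). Over the 18 genes of arginine, nitric oxide and polyamine metabolism, 4 rose and 7 fell in each genotype. Over all genes 27.1% rose and 30.3% fell in Cpeb4-/- cells. Apart from Arg1 a difference was called only for the spermidine synthase Srm (1 of 18 higher and 1 of 18 lower, against 3.67% and 0.783% of all genes). Srm rose in WT cells (0.33) and had no called change in Cpeb4-/- cells (-0.043). Its difference was -0.37 ± 0.10 (limma adjusted p = 0.0475, up to 0.154 with 1 mouse left out). The prostaglandin E synthase Ptges rose by 0.34 and 0.72 (adjusted p = 0.0557 for the difference).

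The other 9 of the 10 largest rises were Smad6, Pgbd5, Cd300lf, Tmem86a, Cnr2, Il1rl2, Egln3, Tmem119 and 2610507I01Rik. Smad6, an inhibitor of BMP and TGF-beta signalling, went from 5.38, 5.12, 5.42 and 5.46 to 7.58, 7.55, 7.62 and 7.71 in Cpeb4-/- mice and from 4.72, 4.84, 4.76 and 4.61 to 6.78, 6.57, 6.94 and 6.88 in WT mice. Cpeb4-/- cells were higher at both times, and the rise of 2.27 ± 0.094 did not differ by the test from that of 2.06 (difference 0.21 ± 0.13, limma adjusted p = 0.398). Cd300lf, an inhibitory receptor of myeloid cells, started lower in Cpeb4-/- cells. It was at 5.26, 5.45, 5.44 and 5.28 in Cpeb4-/- and 5.70, 5.85, 5.48 and 5.78 in WT mice at 6 hr, without overlap, and at 7.22, 7.59, 7.47 and 7.11 and 6.69, 6.85, 6.62 and 7.34 at 9 hr, where the groups overlapped. Its rise was 1.99 ± 0.10 against 1.17 (difference 0.82 ± 0.14, limma adjusted p = 0.0112). The remaining rises were 1.99 for the lysoplasmalogenase Tmem86a, 1.93 for the cannabinoid receptor Cnr2, 1.80 for the IL-36 receptor Il1rl2, 1.77 for Tmem119, known as a marker of microglia, 2.14 for the transposase-derived gene Pgbd5 and 1.76 for 2610507I01Rik. None of these 6 had a called difference, and Pgbd5 and Il1rl2 were low at 6 hr (2.74 to 2.94 and 3.11 to 3.74), where rlog values are shrunken most.

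**Figure D5:**
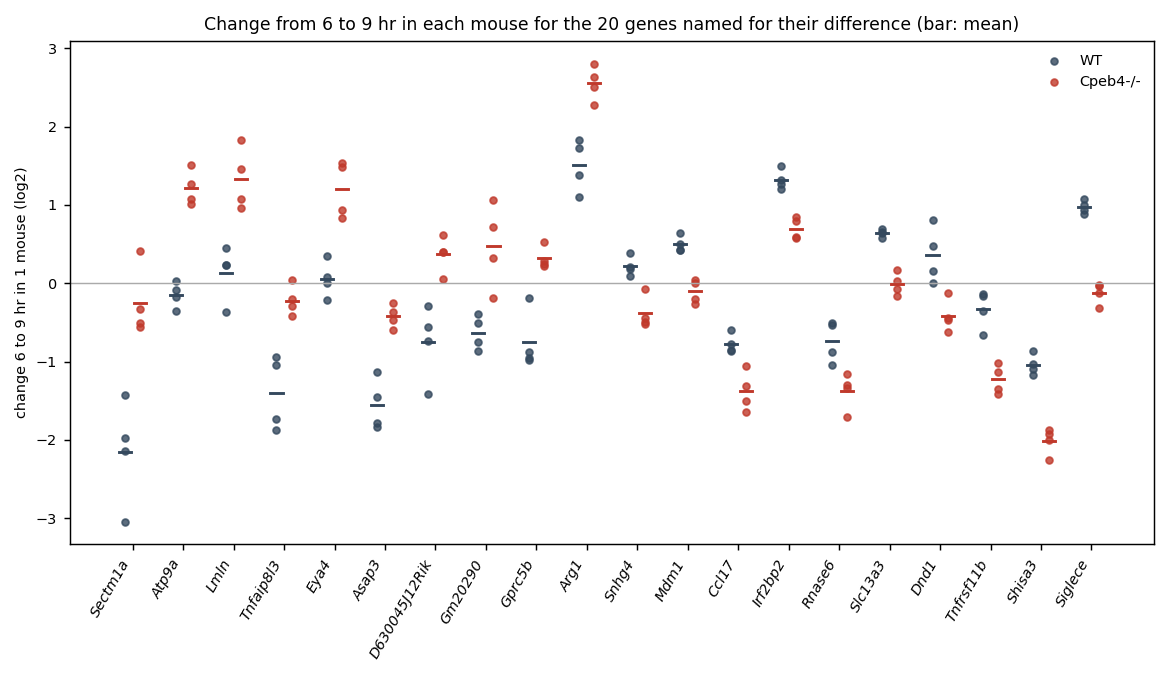
Change from 6 to 9 hr (log2) in each Cpeb4-/- mouse (red) and each WT mouse (dark blue) for the 20 genes named for their difference, with bars at the mean of 4 mice. The groups were chosen not to overlap; the differences run from 1.90 for Sectm1a to -1.10 for Siglece.

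The 20 genes named for the size of their difference were required to have separate changes in the genotypes, so the separation is no finding in itself. The widest positive difference was that of Sectm1a, a secreted and transmembrane protein of immune cells. It was at 4.04, 3.58, 4.46 and 3.54 in Cpeb4-/- mice at 6 hr and at 3.52, 3.995, 3.90 and 3.22 at 9 hr, while WT mice went from 4.87, 5.599, 4.96 and 5.65 to 2.89, 2.56, 3.53 and 3.504. The genotypes were separate at 6 hr, with WT higher, and overlapped at 9 hr (difference 1.90 ± 0.32, limma adjusted p = 0.011). The same course, a WT fall from a higher 6 hr level that Cpeb4-/- cells did not match, was seen for the Arf GTPase regulator Asap3 (WT, 4.59 to 5.06 at 6 hr and 3.20 to 3.46 at 9 hr; Cpeb4-/-, 3.86 to 4.37 and 3.39 to 4.09), with a difference of 1.13 ± 0.20 (limma adjusted p = 0.0115). The orphan receptor Gprc5b fell from 6.503, 6.92, 4.51 and 6.97 to 5.55, 5.94, 4.32 and 6.09 in WT mice 25, 69, 87 and 88 and was at 4.40 to 4.76 and 4.78 to 5.01 in Cpeb4-/- mice. At 6 hr WT mouse 87 was the only WT mouse within the Cpeb4-/- range (difference 1.07 ± 0.18, limma adjusted p = 0.0112, and 0.442 without the mouse block).

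Another set rose in Cpeb4-/- cells with no called change in WT cells. Atp9a, a membrane transporter of the phospholipid flippase family, rose from 3.23, 3.21, 3.38 and 3.06 to 4.73, 4.29, 4.39 and 4.32 in Cpeb4-/- mice and was at 3.94 to 4.29 at 6 hr and 3.63 to 4.20 at 9 hr in WT mice. Its difference was 1.36 ± 0.18 (limma adjusted p = 0.00442), with every Cpeb4-/- library below WT at 6 hr and above WT at 9 hr. Eya4, a transcriptional coactivator with phosphatase activity, rose by 0.83 to 1.53 in Cpeb4-/- mice and changed by -0.22 to 0.35 in WT mice (difference 1.14 ± 0.20, limma adjusted p = 0.0112). The metallopeptidase Lmln rose by 0.96 to 1.83 in Cpeb4-/- and changed by -0.36 to 0.45 in WT mice (adjusted p = 0.0215 with limma, up to 0.0674 with 1 mouse left out). It was low, with means of 3.06 and 4.39 in Cpeb4-/- cells and 3.43 and 3.56 in WT cells at 6 and 9 hr. The lipid transfer protein Tnfaip8l3 instead fell by 1.40 in WT cells and had no called change in Cpeb4-/- cells (adjusted p = 0.0198 for its difference of 1.18 with limma, up to 0.0697 with 1 mouse left out). Gm20290 and D630045J12Rik, with differences of 1.11 and 1.12, reached adjusted p values of up to 0.0997 and 0.138 with 1 mouse left out (limma), and the latter was near the filter at 1.94 to 2.33 in Cpeb4-/- cells at 6 hr. These 2 genes and Sectm1a, Asap3, Atp9a, Eya4, Lmln and Tnfaip8l3 were low. They left the fit when a mean rlog of at least 5 was required, so their calls were not checked there.

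The widest negative difference was that of Siglece (chr7:43648882-43672044), an inhibitory receptor for sialic acids on myeloid cells. It was at 7.03, 6.86, 6.95 and 7.12 in Cpeb4-/- mice at 6 hr and at 6.91, 6.83, 6.92 and 6.81 at 9 hr. WT mice went from 9.59, 9.13, 9.86 and 9.44 to 10.59, 10.02, 10.80 and 10.51. Siglece rose in every WT mouse and had no called change in Cpeb4-/- cells (-0.12 ± 0.06, limma adjusted p = 0.0945; difference -1.10 ± 0.084, adjusted p = 1.73e-04). The genotypes were already apart in untreated cells, at 5.31 to 5.55 in Cpeb4-/- and 7.33 to 8.03 in WT mice. The same held for Slc13a3, a dicarboxylate transporter, at 4.96 to 5.16 and 6.84 to 7.30 in untreated cells, which rose by 0.64 in WT cells and changed by -0.07, 0.17, -0.17 and 0.031 in the 4 Cpeb4-/- mice (difference -0.65 ± 0.088, limma adjusted p = 0.00442, and 0.171 without the mouse block).

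Shisa3, which encodes a transmembrane adaptor of the endoplasmic reticulum, fell from 10.23, 10.50, 10.55 and 10.25 to 7.97, 8.58, 8.55 and 8.38 in Cpeb4-/- mice and from 10.70, 10.85, 10.44 and 11.13 to 9.67, 9.98, 9.27 and 10.03 in WT mice. The falls of 2.01 and 1.04 differed by -0.97 ± 0.091 (limma adjusted p = 8.57e-04), and the genotypes overlapped at 6 hr and were separate at 9 hr. Irf2bp2, a corepressor of the interferon regulatory factor IRF2, was higher in Cpeb4-/- cells at 6 hr (10.90 to 11.28 against 10.03 to 10.41) and rose less, by 0.70 against 1.32 (difference -0.63 ± 0.079, limma adjusted p = 0.00442). Mdm1, a microtubule-binding protein, rose by 0.42 to 0.64 in WT mice and changed by -0.26 to 0.038 in Cpeb4-/- mice (difference -0.60 ± 0.10, limma adjusted p = 0.0112). The other 4 were less firm. Tnfrsf11b, the decoy receptor osteoprotegerin, differed by -0.90, the antimicrobial ribonuclease Rnase6 by -0.64, the RNA-binding protein gene Dnd1 by -0.77 and the snoRNA host Snhg4 by -0.59, with limma adjusted p values of up to 0.09, 0.115, 0.143 and 0.0985 with 1 mouse left out. Tnfrsf11b and Dnd1 were low and left the fit when a mean rlog of at least 5 was required, so their calls were not checked there. Tnfrsf11b started from unlike levels. Its mean went from 4.67 to 3.44 in Cpeb4-/- cells and from 2.53 to 2.21 in WT cells, where it was near the filter of 2.32.

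Of 34 ribosome biogenesis genes, 17 fell, 5 rose and 12 had no called change in Cpeb4-/- cells (WT, 8 fell and 9 rose), with medians of -0.15 and 0.034. The difference was called for 6 of 34, all lower in Cpeb4-/- cells (0.783% of all genes were), and was negative for 31, with a median of -0.16. The mean over the list lay between -0.16 and -0.11 in the Cpeb4-/- mice and between -0.0011 and 0.045 in the WT mice. The median difference was -0.21 in batch 1 and -0.13 in batch 2. The number called lower depended on the fit. It was 1 without the mouse block, 1 without the trend in the variance and 2 with no filter on low values. It was 15 without Cpeb4-/- mouse 2, 3 without mouse 62, 2 without mouse 55 and 1 without mouse 3. Without WT mouse 25, 69, 87 or 88 it was 1 each time. Gnl3, the nucleolar GTPase nucleostemin, was at 10.22, 10.20, 10.16 and 10.20 in Cpeb4-/- mice at 6 hr and at 9.81, 9.83, 9.78 and 9.92 at 9 hr, and at 10.08, 9.98, 10.11 and 9.99 and 10.11, 10.03, 10.06 and 10.06 in WT mice. The Cpeb4-/- libraries were higher at 6 hr and lower at 9 hr without overlap, and the difference was -0.39 ± 0.058 (limma adjusted p = 0.00711). Bysl, needed for the small subunit, rose in WT mice (0.34, 0.32, 0.35 and 0.31) and changed by 0.0082, 0.0092, 0.089 and 0.076 in Cpeb4-/- mice (difference -0.28 ± 0.06, limma adjusted p = 0.023, up to 0.0749 with 1 mouse left out). The other 4 called members, named after their values were seen, were Gar1, Dkc1, Nop58 and Nop2. Wdr43 was one of 3 genes on the other side and fell by 0.75 in Cpeb4-/- and 0.99 in WT cells, with no called difference.

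Of 52 cytosolic ribosomal protein genes, 38 fell in Cpeb4-/- cells and 10 in WT cells, none rose in either, and no difference was called although it was negative for 49 (median -0.093). The mean change over the list ran from -0.47 to 0.012 in single Cpeb4-/- mice and from -0.24 to -0.02 in WT mice, so the mice overlapped. Rpl24 and Rpl5 fell by 0.46 and 0.41, from levels near 6, and ribosomal protein genes have many processed pseudogenes that can take their reads. Of 39 oxidative phosphorylation subunits 8 fell and 1 rose in Cpeb4-/- cells (WT, 4 and 2), against 30.3% and 27.1% of all genes in Cpeb4-/- cells. The difference was negative for 36 with none called, and the cytochrome Cycs led the falls at -0.62.

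Among stress pathway genes the differences were mostly negative. Of 23 targets of the integrated stress response factor ATF4, 6 rose and 7 fell in Cpeb4-/- cells (WT, 10 and 6). These counts were near the shares over all genes, of which 27.1% rose and 30.3% fell in Cpeb4-/- cells. The difference was negative for 21 targets (median -0.15) and called for 2 (2 of 23 lower, against 0.783% of all genes). Atf5, a stress-induced transcription factor, changed by -0.0012, -0.057, -0.049 and -0.34 in the Cpeb4-/- mice and by 0.26, 0.30, 0.17 and 0.30 in the WT mice (difference -0.37 ± 0.077, limma adjusted p = 0.0227, up to 0.0856 with 1 mouse left out). Asparagine synthetase, Asns, changed by 0.10, 0.16, -0.019 and -0.13 and by 0.32, 0.29, 0.29 and 0.30 (difference -0.27 ± 0.067, limma adjusted p = 0.0425, up to 0.115 with 1 mouse left out). The mean over this list was -0.16 to 0.12 in Cpeb4-/- mice and 0.079 to 0.16 in WT mice. The pseudokinase Trib3 led the rises at 0.75.

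The antioxidant targets of NRF2 rose for 8 of 24 and fell for 6 in Cpeb4-/- cells (WT, 10 and 5). Over all genes 27.1% rose and 30.3% fell in Cpeb4-/- cells. The difference was negative for 21 of 24 targets, and 3 were called, all lower (3 of 24, against 0.783% of all genes): Hmox1, Osgin1 and Srxn1 (the last named after its value was seen). Hmox1, the heme-degrading oxygenase, was at 15.61, 15.26, 15.46 and 15.58 in Cpeb4-/- mice at 6 hr and at 15.92, 15.75, 15.92 and 15.81 at 9 hr. In WT mice it was at 15.13, 15.37, 15.27 and 15.10 and 15.72, 16.30, 15.97 and 16.02. The groups overlapped at both times, and the rises of 0.37 and 0.78 differed by -0.41 ± 0.087 (limma adjusted p = 0.0244, up to 0.0903 with 1 mouse left out). Osgin1, an oxidative stress-induced growth inhibitor, rose by 0.57 to 0.64 in Cpeb4-/- and 0.80 to 1.09 in WT mice (difference -0.33 ± 0.07, limma adjusted p = 0.0231, up to 0.072 with 1 mouse left out). Of 21 endoplasmic reticulum stress genes, 6 rose and 7 fell in each genotype, near the shares over all genes. Their medians were near 0, and the sign turned under quantile normalization. Among them only Herpud1, a component of ER-associated degradation, differed (1 of 21 lower, against 0.783% of all genes). It was at 11.30, 11.21, 11.38 and 11.47 in Cpeb4-/- mice and 10.99, 10.98, 11.21 and 11.10 in WT mice at 6 hr, where the groups met. At 9 hr it was at 10.66, 10.57, 10.69 and 10.54 in Cpeb4-/- mice, below the WT values of 10.79, 10.78, 10.94 and 10.79 (difference -0.48 ± 0.07, limma adjusted p = 0.00699).

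Cholesterol synthesis genes rose for 10 of 25 and fell for 8 in Cpeb4-/- cells (WT, 11 and 7) with no called difference. Over all genes 27.1% rose and 30.3% fell in Cpeb4-/- cells. The last enzyme of the pathway, Dhcr7, rose by 1.15. In a list of 13 liver X receptor target and cholesterol efflux genes, 6 rose and 3 fell in Cpeb4-/- cells (WT, 4 and 5). In it 3 differences were called, all higher in Cpeb4-/- cells (3 of 13, against 3.67% of all genes). The list also held Ch25h, which makes the antiviral oxysterol 25-hydroxycholesterol and is not taken here as a receptor target. Ch25h fell by 1.52 against 2.01 in WT (difference 0.49 ± 0.10, limma adjusted p = 0.021, up to 0.0624 with 1 mouse left out). The cholesterol exporter Abcg1 rose by 0.18 in Cpeb4-/- cells and fell by 0.20 in WT cells, and the desaturase Scd1 rose by 0.53 in Cpeb4-/- cells (differences 0.38 and 0.40, limma adjusted p = 0.0215 and 0.0336, up to 0.072 and 0.11 with 1 mouse left out). Scd2 rose by 1.42 and 1.64 with no called difference.

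Receptors for debris and dying cells were falling in both genotypes: of 24 scavenger, phagocytic and efferocytosis receptors, 17 fell and 5 rose in each. Mertk, the receptor through which macrophages engulf apoptotic cells, was at 9.84, 10.49, 10.38 and 9.64 in Cpeb4-/- mice at 6 hr and at 9.04, 9.79, 9.56 and 9.35 at 9 hr. In WT mice it was at 10.25, 10.57, 10.09 and 10.56 and 9.02, 9.14, 8.89 and 9.16. The groups overlapped at 6 hr, and the fall was smaller in every Cpeb4-/- mouse (-0.80, -0.70, -0.82 and -0.29) than in the WT mice (-1.23, -1.43, -1.20 and -1.40), with a difference of 0.66 ± 0.11 (limma adjusted p = 0.011, and 0.235 without the mouse block). Scarb1, the high-density lipoprotein receptor, rose by 0.63 and 0.41 (difference 0.22 ± 0.054, limma adjusted p = 0.0372, up to 0.126 with 1 mouse left out), and Marco, a scavenger receptor for bacteria, by 0.57 and 0.87 with no called difference. Of the 39 lysosomal genes 8 rose and 11 fell in Cpeb4-/- cells (WT, 7 and 13), against 27.1% and 30.3% of all genes in Cpeb4-/- cells. None differed by the test, and their regulator Tfeb rose by 0.63.

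Secreted defence proteins were split in both genotypes, with 7 of 22 rising and 10 falling in Cpeb4-/- cells (WT, 8 and 10). All genes were split too, with 27.1% rising and 30.3% falling in Cpeb4-/- cells. The protease inhibitor Slpi rose by 1.27 and the matrix protein Thbs1 by 1.07, while the pentraxin Ptx3 fell by 1.78. The siderophore-binding protein Lcn2 rose less in Cpeb4-/- cells (0.13 against 0.42; difference -0.29 ± 0.075, limma adjusted p = 0.0473, up to 0.154 with 1 mouse left out), and haptoglobin, Hp, rose by 0.79 and 1.09 with no called difference. Of 35 cell cycle genes, 12 rose, led by E2f1 at 1.21, and 12 fell in Cpeb4-/- cells, not far from the shares over all genes. The sign of their median turned under quantile normalization. The replication helicase subunit Mcm6 alone had a called difference, of 0.25 ± 0.059 (limma adjusted p = 0.0369, up to 0.117 with 1 mouse left out). That is 1 of 35 higher, no more than the 3.67% of all genes. Of 22 genes that the study named, partly from these libraries and so no independent evidence, 16 fell and 4 rose in each genotype. The differences of Cpeb4, Il10 and Vegfa were called (3 of 22 higher, against 3.67% of all genes). Among the others, Mapk14, which encodes p38 alpha, rose by 0.62 and 0.71, and Txnip, an inhibitor of thioredoxin and of glucose uptake, by 0.36 and 0.21, with no called difference for either.

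The changes of whole libraries were compared last. Across the 13021 genes, which are not independent replicates, the changes of Cpeb4-/- mice correlated with r from 0.67 to 0.85 in 6 pairs (median 0.79), and those of WT mice from 0.84 to 0.87. The 16 pairs of a Cpeb4-/- and a WT mouse ranged from 0.60 to 0.84, with the same median of 0.79. The change of Cpeb4-/- mouse 2 correlated with the mean of the other Cpeb4-/- mice at 0.80 and with the WT mean at 0.84, and mouse 62 stood at 0.82 and 0.73. The called differences named above were followed with each of the 8 mice left out in turn, except those of members named after their values were seen. Of these 54 differences, 24 stayed called throughout and 30 were lost without at least 1 mouse. None of them was lost without Cpeb4-/- mouse 2, 27 without mouse 3, 12 without mouse 55 and 14 without mouse 62. Without WT mice 25, 69, 87 and 88, 26, 30, 22 and 23 were lost. Without the mouse block 11 of the 54 were called. Of 104 changes within Cpeb4-/- cells, 97 were called with each mouse left out, and those of Abcg1, Asap3, Cpeb4, Dnd1, Gm20290, Gprc5b and Lcn2 were lost without at least 1 mouse.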

How the data were processed

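Poly(A) RNA was sequenced from BMDMs of 8 mice at 5 times of LPS. The authors aligned reads to mm10 with STAR 2.3.0e, counted them per gene with featureCounts and deposited DESeq2 rlog values, on a log2 scale; the strand setting of the counting is not given in the sources used here. Every value column of a sample was mapped, leaving 0 unused.

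The 16 libraries of 6 and 9 hr were fitted with limma 3.58.1 (R 4.3.3; statmod 1.5.0) with mouse as a block and a trended eBayes, keeping genes whose rlog values averaged log2 of 5 or more. Benjamini-Hochberg adjustment covered 13021 genes, with calls at an adjusted p under 0.05. Libraries pair by mouse number, which marks the animal. Each 6 hr library was compared only with the 9 hr libraries of its genotype, as deviations from the group means. Over 50 genes chosen to mark mice in the earlier libraries, it correlated best with that of its own mouse (r = 0.86 to 0.99). Over all genes r was 0.31 to 0.45 in 7 mice and 0.026 in Cpeb4-/- mouse 62, which there correlated best with mouse 2 (r = 0.37). Named were the 10 largest rises and falls in Cpeb4-/- cells with 1 sign in 4 mice, the 10 highest and lowest called differences without overlap, the genes the study named, and from each list the 2 largest rises, falls and smallest p; some genes this rule names are not reported here. Members and lists were chosen with earlier results of these data known, and a list the study named is not independent evidence. The fit was tested on simulated data. Figures used Python 3.11.15 and matplotlib 3.10.9. Alternatives varied the block, libraries, filter, variance model, scaling, batch term and mice.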

Additional observations from a re-analysis of the deposited data

Results flagged for a closer look

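The change from 6 to 9 hr was tested for a difference between genotypes, and for 54 named genes the test passed (limma, adjusted p under 0.05): 33 were higher in Cpeb4-/- cells and 21 lower. Members named above after their values were seen are not among them. The number after each gene is the Cpeb4-/- change minus the WT change on the log2 scale. Among cytokines and chemokines these were Csf1 (0.45), Cxcl10 (0.45) and Il15 (0.45) on the higher side and Ccl17 (-0.61), Ccl4 (-0.49) and Ccl3 (-0.44) on the lower side. Among feedback inhibitors and immediate early factors they were Il10 (0.57), Etv3 (0.45), Fos (0.38) and Jun (0.35), and among interferon-stimulated genes Cmpk2 (0.57) and Rsad2 (0.39). HIF targets and glycolysis genes gave Mxi1 (0.65), Vegfa (0.49), Pdk1 (0.38), Hk1 (0.31) and Pfkp (0.21). Arginine and polyamine metabolism gave Arg1 (1.04) and Srm (-0.37).

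Lipid, phagocytosis and macrophage genes that passed were Mertk (0.66), Ch25h (0.49), Scd1 (0.40), Abcg1 (0.38) and Scarb1 (0.22). Stress response genes were Herpud1 (-0.48), Hmox1 (-0.41), Atf5 (-0.37), Osgin1 (-0.33) and Asns (-0.27), ribosome biogenesis genes Gnl3 (-0.39) and Bysl (-0.28), and CPEB genes Cpeb4 (0.97) and Cpeb3 (0.50). The genes outside these groups were Sectm1a (1.90), Atp9a (1.36), Lmln (1.19), Tnfaip8l3 (1.18), Eya4 (1.14), Asap3 (1.13), D630045J12Rik (1.12), Gm20290 (1.11), Gprc5b (1.07), Cd300lf (0.82) and Mcm6 (0.25) on the higher side and Siglece (-1.10), Shisa3 (-0.97), Tnfrsf11b (-0.90), Dnd1 (-0.77), Slc13a3 (-0.65), Rnase6 (-0.64), Irf2bp2 (-0.63), Mdm1 (-0.60), Snhg4 (-0.59) and Lcn2 (-0.29) on the lower side.

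In 7 of 236 groups of 4 mice 1 mouse stood apart from the others in its change, where chance sets apart a mouse in about 1 of 20 groups. These were Pgbd5 in WT mouse 69 (0.41, the others 1.62 to 1.79), Gprc5b in WT mouse 87 (-0.19, the others -0.98 to -0.87), Hif1a in WT mouse 25 (-0.23, the others 0.019 to 0.045), Atf5 in Cpeb4-/- mouse 62 (-0.34, the others -0.057 to -0.0012), Scd2 in WT mouse 88 (2.01, the others 1.498 to 1.54), Mapk14 in WT mouse 69 (0.54, the others 0.75 to 0.78) and Cycs in WT mouse 69 (-0.25, the others -0.43 to -0.40).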

How the results depend on the processing

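The number of called differences (478 higher and 102 lower) depended on the setting. Without the mouse as a replicate block it was 64 and 9, and with the block as a random effect 397 and 96. It was 9 and 7 with no filter on low values, 79 and 11 without the trend in the variance, 896 and 210 with a batch by time term, 289 higher under quantile normalization and 181 lower with all 40 libraries. Leaving out each mouse in turn gave 108 to 1350 higher and 9 to 513 lower. Each batch alone, added after the data were seen, gave 1707 and 645 in batch 1 and 147 and 58 in batch 2. The cause was not tested. The counts within Cpeb4-/- and WT cells stayed within 1.5 times of their values under the alternatives run.

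The sign of the change in Cpeb4-/- cells turned for Bysl under quantile normalization (-0.00031), and with a mouse left out for Slc13a3 (-0.069 to 0.043), Hif1a (-0.00019 to 0.23), Asns (-0.017 to 0.081), Hk1 (-0.011 to 0.065) and Srm (-0.11 to 0.00053). None of these 6 changes was called under the reported settings, while that of Hif1a was called in 2 of 18 alternatives (quantile normalization and without Cpeb4-/- mouse 2) and that of Hk1 in 1 (quantile normalization). Under quantile normalization the median change in Cpeb4-/- cells turned to 0.22 for endoplasmic reticulum genes (-0.011 to 0.026 with a mouse left out), -0.042 for cell cycle, 0.17 for lysosomal and 0.12 for macrophage marker genes, and the median difference of the macrophage markers to -0.041. The rlog values do not carry depth, so counting error cannot be given, and 4 mice per genotype limit the precision.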
